A study of Mus musculus with 27 samples.

Results

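The 9 libraries described here read the chromosome contacts of N1, an enhancer on mouse chromosome 5, in forelimb, hindlimb and liver, and they were taken from the 27 libraries of the series because their labels name N1 as the viewpoint. The other 18 libraries read the same DNA templates from the viewpoints N2 and N3. Embryos were at E14.5, a stage of mid-gestation in the mouse, of a strain that the sample labels give as C57BL/6Ncrl and the protocol as C57BL/6NJ, without any treatment or mutation, and each replicate pooled 5 to 6 embryos. There were 3 forelimb, 3 hindlimb and 3 liver libraries, and the 6 limb libraries were set against the 3 liver libraries. A forelimb or hindlimb bud is a mixture of cartilage precursors, muscle, skin and other cells, and the liver of this stage holds hepatocyte precursors and blood-forming cells, so each library is an average over cell types. Groups and replicates follow the sample titles, with which other labels conflict: hindlimb replicate 3 is given as replicate 1 in its source label at each viewpoint, and the descriptions of the N3 liver libraries name enhancer 1. The assay carries no expression, and the tissue labels could not be checked against marker genes.

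Enhancers are stretches of DNA that raise transcription of a gene from a distance, and they usually do so within a topologically associating domain (TAD), a stretch of chromosome whose parts meet each other more often than they meet the rest. N1 lies in the TAD of *Nkx3-2* (*Bapx1*), which encodes a homeodomain repressor that delays maturation of cartilage into bone. In 4C-seq (circular chromosome conformation capture), nuclei are cross-linked, the DNA is cut with a restriction enzyme and joined again, and everything joined to 1 chosen site, the viewpoint, is amplified and sequenced. Contacts usually fall off with distance along the chromosome, and reads on other chromosomes mix true contacts with random joining. The comparison asked how far the reads of N1 reached beyond its own TAD and whether that differed between limb, where *Nkx3-2* acts in cartilage, and liver.

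The viewpoint is a BglII fragment of only 47 bases at chr5:41165709-41165755 (GRCm38), between genes, 599 kb from the 5′ end of *Nkx3-2* and 542 kb from that of *Rab28*. The TAD runs over chr5:41050000-41810000, so that one edge is 116 kb before the viewpoint and the other 644 kb after it. The stretch from the outer primer to the second BglII site is shown because the nested primer in it returns in the results, with the BglII sites in capitals, followed by the nested primer alone.
N1 viewpoint, chr5:41165684-41165760, + strand: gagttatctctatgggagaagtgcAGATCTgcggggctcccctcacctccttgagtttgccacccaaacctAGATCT
N1 nested primer, chr5:41165733-41165752, + strand: cttgagtttgccacccaaac

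N1 was sequenced thinly. Total reads here are the counts summed over all fragments. They were 20134, 11176 and 15232 in the forelimb libraries, 8460, 2984 and 8812 in the hindlimb libraries, and 19063, 11251 and 13964 in the liver libraries. The N2 and N3 libraries of the same templates held 165471 to 2376866 reads. Leaving out the 8 fragments within 20 kb of the viewpoint, the N1 libraries kept 385 to 3508 fragments with reads of 949826 fragments in the genome. The number of fragments did not follow depth, since liver replicate 3 had the most from 13964 reads and forelimb replicate 1 had 1579 from 20134. Of the fragments with reads, 71.0 to 92.8% had an adjoining fragment with the same count, so fragments mostly came in pairs and are not independent observations. If a read was counted on both fragments of a pair, the totals above hold it more than once, which was not tested. Intervals given below are 95% intervals that cover counting error only, and PCR copies and paired fragments make them too narrow.

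Chromosome 5 held more of the reads outside the TAD than its share of fragments would give, in limb and in liver alike, and the limb-liver difference was within the spread of the libraries. It held 5.43% of all fragments outside the TAD. It received 8.45, 6.75 and 8.86% of the reads outside the TAD in the forelimb libraries, 11.8, 16.3 and 10.9% in the hindlimb libraries and 11.2, 8.11 and 25.6% in the liver libraries. Liver replicate 3 was far above the other 8 libraries. The other 2 liver libraries lay within the range of the limb libraries, in which forelimb, at 8.02% ± 1.12 (SD, n = 3), and hindlimb, at 12.99% ± 2.90 (SD, n = 3), did not overlap, so that the limb mean joins 2 separate ranges; the difference between them was not tested. The mean was 10.5% ± 3.36 (SD, n = 6) in limb and 14.97% ± 9.36 (SD, n = 3) in liver, a difference of -4.46 percentage points, limb minus liver. An exact two-sided permutation test over the 84 arrangements of 9 libraries gave p = 0.357, adjusted p = 0.536 over 5 share comparisons, where 0.0119 is the smallest p the design allows. After adjustment over 5, a share at that smallest p would not pass 0.05 on its own.

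Counting fragments with reads, which a few heavily read fragments cannot move, gave the same picture. The shares were 10.3, 8.46 and 9.20% in forelimb, 11.1, 11.6 and 11.8% in hindlimb, and 11.2, 7.78 and 25.5% in liver, with forelimb again wholly below hindlimb. All 6 limb libraries lay within the range of the liver libraries (exact permutation p = 0.286, adjusted p = 0.536). Liver replicate 3 had 867 chromosome 5 fragments outside the TAD, against 43 to 284 in the other libraries, and the Wilson interval of its share, 24.08 to 27.01%, lay above the intervals of all the others, the highest of which ended at 15.2%. Thinned to the 2964 reads of the shallowest library, its share was 26.1% and those of the other 8 libraries were 7.65 to 11.6%. Without liver replicate 3 the difference changed sign, to 0.94 percentage points for fragments (exact permutation p = 0.536) and 0.87 for reads (p = 0.750). The limb and liver means therefore differed in the direction that this 1 library set. Without hindlimb replicate 3, whose labels conflict, the difference in reads was -4.54 percentage points (exact permutation p = 0.429). With the TAD included, chromosome 5 held a mean of 14.4% of the reads in limb and 17.9% in liver (exact permutation p = 0.536) and of fragments 13.04 and 16.65% (p = 0.452), and these signs also turned without liver replicate 3.

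**Figure D1:**
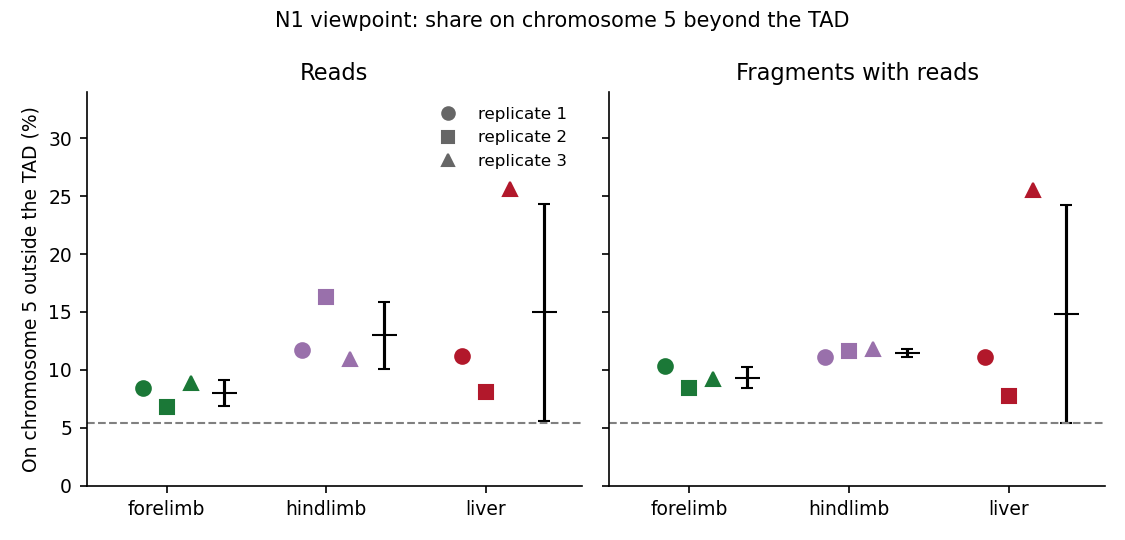
Percent of reads (left) and of fragments with reads (right) outside the TAD that lay on chromosome 5, 1 point a library, with the mean and SD of each tissue (n = 3) beside it. The dashed line is the share of all fragments outside the TAD that chromosome 5 holds, 5.43%; all 9 libraries lie above it, and liver replicate 3 stands at 25.6 and 25.5%.

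Liver replicate 3 also stood apart at the other viewpoints made from its template. From N2 it placed 18.0% of its fragments outside the TAD on chromosome 5, against 7.05 to 9.30% in the other 8 libraries, and from N3 9.81%, against 6.42 to 7.19%. The share of reads from N1 was compared with that from N3 and N2 within each template, as a log2 ratio. N1 was above N3 by 0.65 ± 0.45 (SD, n = 6) in limb and 0.96 ± 0.66 (SD, n = 3) in liver, and above N2 by 2.58 ± 0.84 in limb and 2.37 ± 0.39 in liver. N1 exceeded N2 in 9 of 9 templates and N3 in 8 of 9. The limb minus liver differences in these ratios, -0.31 against N3 (p = 0.440) and 0.22 against N2 (p = 0.798), did not pass the exact permutation test (adjusted p = 0.798 for each), and both turned sign when 1 template was left out, to 0.0551 without liver replicate 3 and -0.0652 without hindlimb replicate 2. The mean share of reads from N2 was itself low, at 1.77% in limb and 3.20% in liver, under the 5.43% of fragments that chromosome 5 holds outside the TAD. By fragments with reads, the mean shares from N1 and N2 were closer, at 10.4 and 7.57% in limb and 14.8 and 11.4% in liver. The depth of the viewpoints differed by up to orders of magnitude, and its part in the higher N1 shares was not tested.

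With distance along chromosome 5 the share of fragments that had any read fell in steps. The scale used here is the percent of the fragments of a band that had reads, divided by the same percent on the other autosomes and X of the same library, where 0.0385 to 0.294% of fragments had reads. Inside the TAD, beyond 20 kb of N1, that fold was 106 ± 25.6 (SD, n = 6) in limb and 86.1 ± 43.7 (SD, n = 3) in liver. From the TAD edge to 0.5 Mb it was 15.5 ± 11.3 in limb and 35.8 ± 38.7 in liver. From 0.5 to 2 Mb it was 7.72 ± 2.67 and 15.05 ± 12.4, from 2 to 10 Mb 3.86 ± 1.48 and 7.83 ± 6.99, from 10 to 40 Mb 1.54 ± 0.47 and 3.07 ± 2.74, and over 40 Mb 1.50 ± 0.21 and 1.27 ± 0.30. The TAD was above the next band in 9 of 9 libraries, and the band of 0.5 to 2 Mb was above that of 2 to 10 Mb in 9 of 9. Bands of 10 to 40 Mb and of over 40 Mb were ordered that way in only 6 of 9. Even over 40 Mb away the fold was above 1 in all 6 limb libraries, from 1.16 to 1.70, and in 2 of 3 liver libraries.

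**Figure D2:**
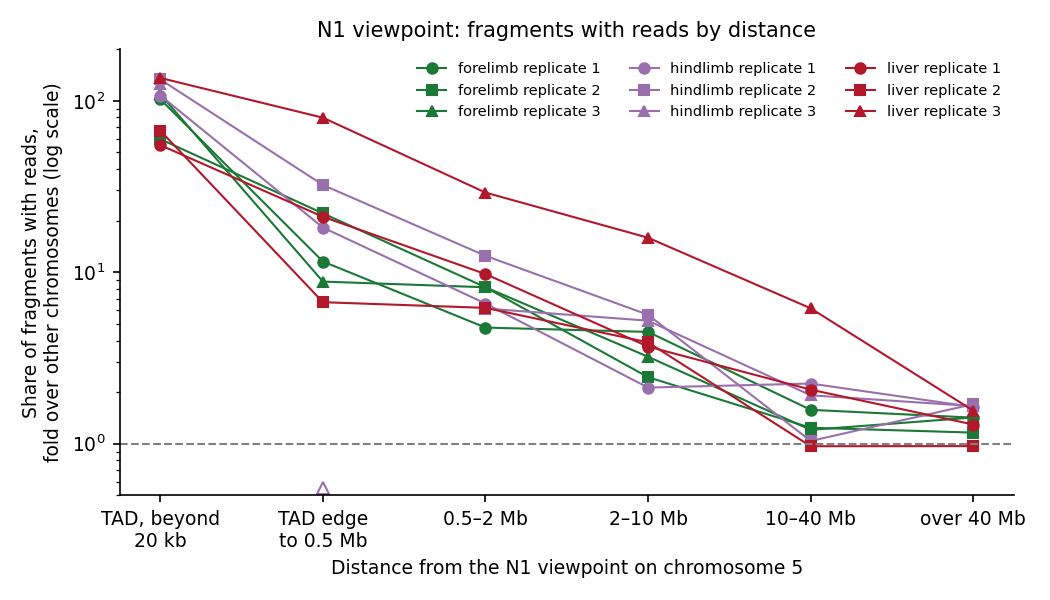
Percent of fragments with reads in each distance band of chromosome 5 divided by the percent on other autosomes and X of the same library, on a log axis, 1 line a library; the dashed line marks no difference from other chromosomes, and the open triangle at the bottom is hindlimb replicate 3, with no reads in the band next to the TAD. The lines fall from 55.2 to 136 in the TAD to 0.97 to 1.70 over 40 Mb away, and liver replicate 3 runs above the others from the TAD edge to 40 Mb.

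The band just outside the TAD, which lies wholly on the side before the viewpoint and away from *Nkx3-2*, was sparse. Its 162 fragments had reads on 3, 5 and 2 fragments in the forelimb libraries, 3, 2 and 0 in the hindlimb libraries and 9, 1 and 38 in the liver libraries. Hindlimb replicate 3, at 0 of 162, allows a share of up to 1.85%, and liver replicate 3 stood at 23.5% (exact interval 17.2 to 30.7%). From 0.5 to 2 Mb, with 1049 fragments, the numbers were 8, 12, 12, 7, 5 and 6 in limb and 27, 6 and 90 in liver. From 10 to 40 Mb, with 20183 fragments, they were 51, 35, 34, 46, 8 and 36 in limb and 110, 18 and 366 in liver. In each of these bands liver replicate 2 was in or below the range of the limb libraries. By these counts liver replicate 1 was above that range and liver replicate 3 far above it. The libraries differ in how many fragments have reads. As a share of all fragments with reads outside the TAD, liver replicate 1 was within the limb range, at 0.35, 1.06 and 4.32%. Liver replicate 3 was still above it, at 1.12, 2.65 and 10.8%.

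Beyond the far end of the TAD, on the side of *Nkx3-2*, the band of 0.5 to 2 Mb had reads on 2, 4, 2, 7, 1 and 2 fragments in limb and 18, 6 and 45 in liver. On the side before the viewpoint the same band had 6, 8, 10, 0, 4 and 4 in limb and 9, 0 and 45 in liver. As a fold over other chromosomes this was 5.70 ± 4.12 (SD, n = 6) in limb and 19.0 ± 9.92 (SD, n = 3) in liver after the TAD, and 9.58 ± 6.44 and 11.4 ± 14.7 before it. The side was split after the band totals were seen and carries no test.

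No distance band was called between limb and liver after adjustment. In the tests, each band's share of everything outside the TAD was compared, 5 bands for reads and 5 for fragments, and 0% of the 5 were called in each. With 84 arrangements and adjustment over 5 bands, a band alone could not pass 0.05, even with limb and liver fully apart. The absence of calls therefore cannot show that the bands were alike. The nearest was fragments over 40 Mb away, which made up 3.65, 3.05, 3.70, 4.18, 4.31 and 4.19% in limb and 3.30, 2.56 and 3.33% in liver. There, 5 of 6 limb libraries were above the highest liver library, and the mean was 3.85% ± 0.48 (SD, n = 6) against 3.06% ± 0.44 (SD, n = 3), with an exact permutation p of 0.0476 and an adjusted p of 0.238 over the 5 bands. For reads, the nearest was the band next to the TAD, at 0.21, 0.26, 0.04, 0.12, 0.07 and 0% in limb and 0.77, 0.01 and 2.21% in liver (exact permutation p = 0.0714, adjusted p = 0.298). Its high values came from liver replicates 1 and 3, while liver replicate 2 was lower than all limb libraries but one.

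Few protein-coding genes lie near this TAD, and none of them had reads nearby in most libraries. Within 2 Mb of either edge 6 protein-coding genes have their 5′ end. Before the viewpoint there is only *Hs3st1*, a heparan sulfate sulfotransferase, at 1410 kb, with 2 fragments with reads within 50 kb of its 5′ end in forelimb replicate 3 and 0 in the other 8 libraries. After the TAD, *Bod1l*, whose product acts at kinetochores and replication forks, had 2 fragments in forelimb replicate 3 and 2 in liver replicate 3. *Gm16223*, at 902 kb, had 2 in hindlimb replicate 3, 2 in liver replicate 2 and 8 in liver replicate 3. *Cpeb2*, an RNA-binding regulator of translation, had 3, all in liver replicate 3. *C1qtnf7* had reads in 3 libraries and *Cc2d2a*, a gene of the ciliary transition zone, in 2. With 30 to 45 fragments within reach of each, reads at a gene in 1 to 3 of 9 libraries are too few for a comparison of tissues.

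The windows of chromosome 5 that most libraries shared lay partly around the TAD, at 37 to 43 Mb, and partly far from it, at 3 to 4 Mb and 122 to 124 Mb. Of 2694 windows of 1 Mb outside the TAD, 150 were on chromosome 5. Reads were present in all 9 libraries in 10 windows and in 8 libraries in 18 windows. Of these 28 windows, 7 were on chromosome 5. The window of 40 to 41 Mb, next to the TAD, holds no protein-coding 5′ end and had 2, 7, 8, 3, 6 and 2 fragments with reads in limb and 8, 1 and 57 in liver. The window of 42 to 43 Mb, with *Gm16223* alone, had 2, 4, 0, 7, 1 and 2 in limb and 12, 4 and 36 in liver. The windows of 37 to 38 Mb, which holds *Msx1*, a homeobox gene of limb and skull, with *Evc* and *Evc2*, ciliary genes of hedgehog signalling in cartilage, and of 38 to 39 Mb, with *Drd5*, a dopamine receptor, and *Slc2a9*, a urate transporter, had 0 to 6 fragments in limb libraries and 23 and 28 in liver replicate 3. Windows of 3 to 4 Mb (with *Cdk6*), 39 to 40 Mb (*Hs3st1*), 44 to 45 Mb (*Prom1*, *Tapt1*, *Ldb2*) and 49 to 50 Mb (*Kcnip4*) had reads in 7 or 8 libraries. At 122 to 123 Mb and 123 to 124 Mb the limb libraries each had 1 fragment with reads, hindlimb replicate 1 excepted with 3 in the second.

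The windows of 122 to 123 Mb and 123 to 124 Mb each held 1 fragment that had reads in every N1 library, and such fragments also lay on other chromosomes. The window of 3 to 4 Mb held no such fragment. Of 11343 fragments outside the TAD that had reads, 9927 had them in 1 library, and 8 had them in all 9. The 8 were 2 on chromosome 5, 81.5 and 82.1 Mb from N1, a pair of neighbours in *Ccdc34* on chromosome 2, 1 each on chromosomes 6, 14 and 16, and 1 more that is not described here. The fragment on chromosome 6, 82.8 kb from the 5′ end of *Fbln2*, an extracellular matrix gene, had 658, 166, 185, 258, 81 and 75 in limb and 274, 411 and 52 in liver. The fragment on chromosome 14, 301 kb from *Ednrb*, the endothelin receptor B gene, had 514, 198, 47, 196, 190 and 31 in limb and 123, 198 and 22 in liver. In both, reads in limb and liver overlapped. Over the 8 fragments together, 2.22 to 27.5% of the reads outside the TAD were found in a limb library and 1.87 to 13.8% in a liver library.

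What the recurrent fragments shared was a stretch of the N1 nested primer. In 7 of the 8, the genome held at least the last 11 bases of the primer's 3′ end, and the remaining one adjoined such a fragment. Among all 949826 fragments, 0.117% (1107) held a match of that length, on either strand. The sites are given as read in the direction of the primer, in the same frame as its 20 bases above, with the unbroken match to the 3′ end in capitals, for 6 of the 7.
Chromosome 5, chr5:123298516-123298535, + strand: ctatcGTTTGCCACCCAAAC
Chromosome 5, chr5:122639392-122639411, - strand: agcacgtgTGCCACCCAAAC
Chromosome 6, chr6:91294257-91294276, + strand: gagcccTTTGCCACCCAAAC
Chromosome 14, chr14:104146979-104146998, - strand: ttgagttggGCCACCCAAAC
Chromosome 2, chr2:110138177-110138196, + strand: actgagttgGCCACCCAAAC
Chromosome 16, chr16:38496560-38496579, + strand: actttcgtaGCCACCCAAAC

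The unbroken match was 15 and 12 bases at the sites on chromosome 5, 14 bases on chromosome 6, and 11 bases at the other sites printed. The site on chromosome 2 had the base of the primer at 17 of 20 positions in all, as did that at 123 Mb on chromosome 5. By the annotation, the site at 123 Mb overlapped an exon where *Wdr66* and the antisense gene *Gm15857* run, that on chromosome 2 was in an intron of *Ccdc34*, and the other 4 printed were between genes, the one at 122.6 Mb being 4.51 kb from the 5′ end of *P2rx7*, an ATP-gated channel gene.

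The match was more frequent among fragments that recurred in more libraries. It was present in, or next to, 1.51% of the fragments with reads in 1 library, 8.33% of those in 3 libraries, 69.2% of those in 5, 62.5% of those in 6, and 19 of the 19 fragments in 8 or 9 libraries. The length of 11 bases was chosen after these 8 fragments were examined, and the longest match is not what chose them.

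**Figure D3:**
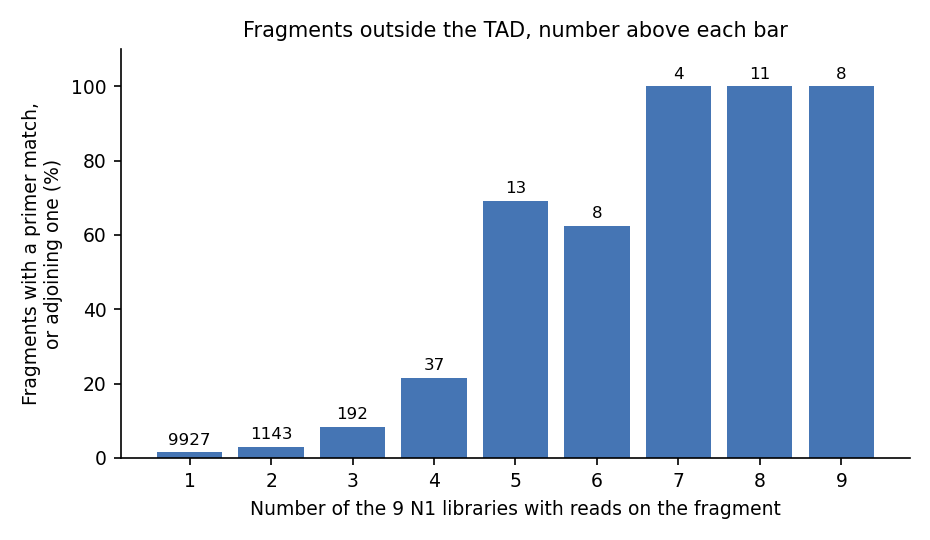
Percent of fragments outside the TAD that held at least the last 11 bases of the N1 nested primer or adjoined a fragment that did, by the number of N1 libraries with reads on the fragment (x axis); the number of fragments stands above each bar. The bars climb from 1.51% at 1 library to 69.2% at 5, stand at 62.5% of 8 fragments at 6, and reach 100% at 7, 8 and 9 libraries.

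Over all fragments outside the TAD, a longer match went with a larger share of fragments with reads, in limb and in liver. With a match under 8 bases, 0.104% ± 0.043 (SD, n = 6) of 842178 fragments had reads in limb and 0.227% ± 0.134 (SD, n = 3) in liver. With 11 bases it was 2.69% ± 0.47 of 744 fragments in limb and 3.09% ± 0.93 in liver, with 12 bases 7.37% ± 1.80 of 269 fragments and 6.82% ± 0.77, and with 13 or more 15.8% ± 4.17 of 93 fragments and 15.8% ± 1.64. The share was higher at each step from 10 to 13 or more bases in all 9 libraries, liver replicate 3 included. In the N2 libraries, read from another primer, 0 to 1.08% of the 93 fragments had reads, against 0.287 to 1.33% of those with a match under 8 bases. At 10 bases the mean N2 share was higher, at 1.18% in limb and 1.57% in liver, against 0.504 and 0.966% under 8 bases. In the N3 libraries the share went from 1.40 to 3.56% under 8 bases to 1.08 to 11.8% at 13 or more. Longer fragments have more room for a match and for reads, and the part of fragment length in the N1, N2 and N3 values was not tested.

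**Figure D4:**
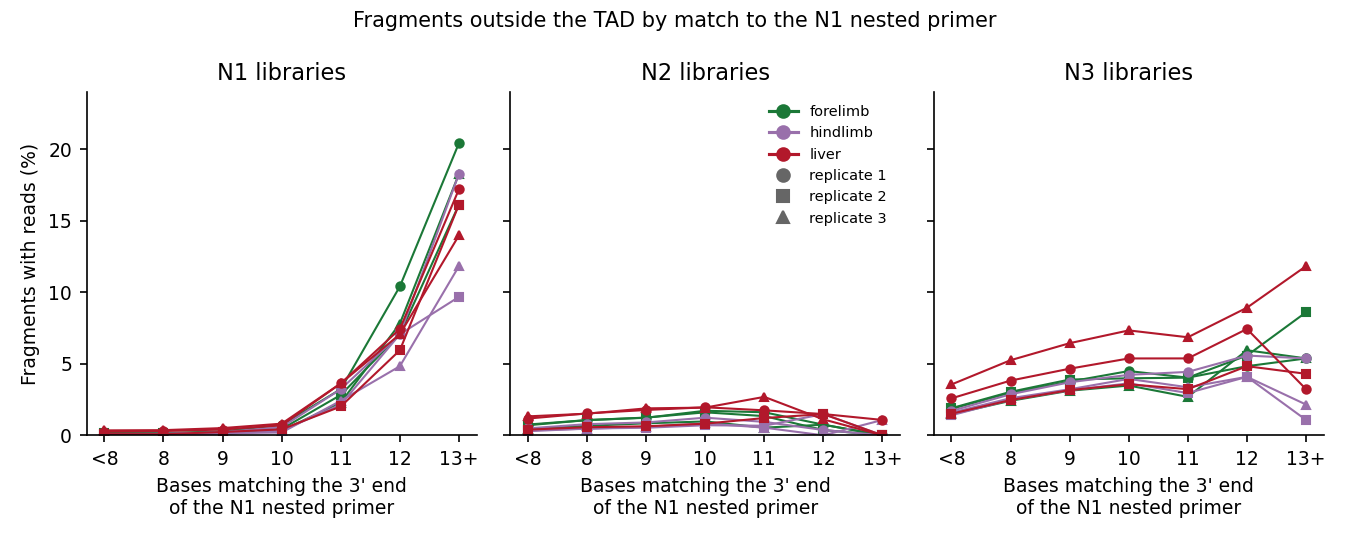
Percent of fragments outside the TAD with reads (y axis) by the number of bases that match the 3′ end of the N1 nested primer without a break (x axis), 1 line a library, in the N1, N2 and N3 libraries. Only the N1 panel climbs steeply, to 9.68 to 20.4% at 13 or more bases, with limb and liver lines interleaved; N2 lines end at 1.08% or below.

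The recurrent fragments, which were chosen by their reads from N1, had hardly any reads from the other viewpoints. Of the fragments with a match under 8 bases, a mean of 0.504% had reads from N2 in limb and 1.65% from N3. Few or no reads from N2 and N3 are therefore what most fragments show. From N2, the 7 fragments other than that at 122.6 Mb had 0 reads in all 9 libraries. From N3 they had at most 4 reads in any library, in 0 to 2 libraries each. The fragment at 122.6 Mb was the exception, with up to 39 reads in 3 N2 libraries and up to 38 in 4 N3 libraries. Fragments with the match, with those adjoining them, made up 24.6, 13.5, 17.1, 19.5, 36.4 and 6.64% of the N1 reads outside the TAD in limb and 10.5, 18.5 and 3.72% in liver. The lowest value belonged to liver replicate 3, which had the most reads elsewhere on chromosome 5, and the number of fragments with a match that had reads was 42 to 71 over all 9 libraries, 59 of them in liver replicate 3.

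Leaving these fragments and their neighbours out, an alternative chosen after the data were seen, did not change which of the 9 libraries was far from the rest. The share of chromosome 5 in reads outside the TAD became 10.2, 6.65, 8.87, 11.1, 12.8 and 11.3% in limb and 11.6, 9.36 and 26.2% in liver. Hindlimb replicate 2, the shallowest library, moved the most, from 16.3 to 12.8%. The fold over other chromosomes in the 4 bands from the TAD edge to 40 Mb was 16.8, 8.33, 4.14 and 1.61 in the limb mean. Over 40 Mb it went from 1.50 ± 0.21 to 1.40 ± 0.17 (SD, n = 6), and was still above 1 in all 6 limb libraries and 2 of 3 liver libraries. Of the 28 windows with reads in 8 or 9 libraries, 7 were left, 4 of them on chromosome 5, and of the 10 with reads in all 9 libraries only the window of 40 to 41 Mb next to the TAD.

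Between chromosomes, no limb-liver difference passed the test. Chromosome 5 held the largest share of fragments with reads relative to its number of fragments in 9 of 9 libraries, 2.39-fold in the limb mean and 3.05-fold in the liver mean (TAD included). Chromosome X held 0.44-fold in limb and 0.46-fold in liver and was under 1 in all 9 libraries, and the other autosomes ran from 0.80 to 1.15 in the mean over libraries. Chromosome Y had 33 reads on 3 fragments in forelimb replicate 3, 16 reads on 6 fragments in liver replicate 3 and none in the other 7 libraries. In edgeR's quasi-likelihood test of reads per chromosome, 0 of 20 chromosomes were called (0% of those tested) and 0 had an unadjusted p under 0.05, and DESeq2 also called 0. The smallest p values were those of chromosome 3, at 3.59% of reads in limb and 5.23% in liver (log2 fold change -0.66, SE 0.38, edgeR adjusted p = 0.915), chromosome 18, at 4.10 and 2.52% (0.67, SE 0.41, adjusted p = 0.915), and chromosome 4, at 6.59 and 5.07% (0.37, SE 0.40, adjusted p = 0.915). Chromosome 5 had a log2 fold change of -0.41 (SE 0.51, adjusted p = 0.915).

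**Figure D5:**
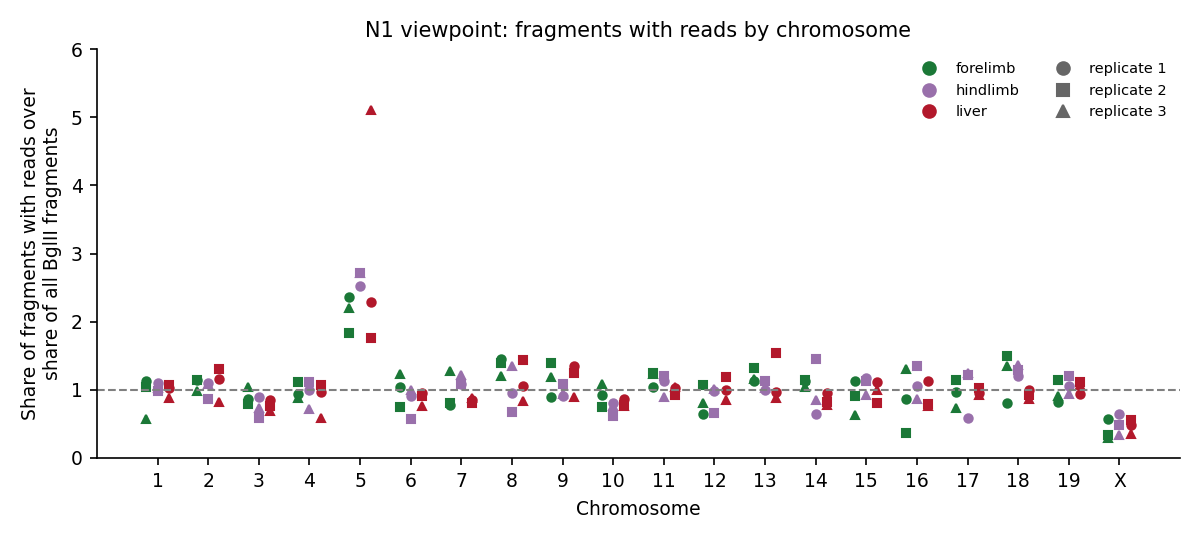
Share of the fragments with reads on each chromosome divided by the chromosome's share of all BglII fragments, for the 9 N1 libraries, TAD included; the dashed line is an even spread. Chromosome 5 is highest in each library, with liver replicate 3 at the top, and X is below 1 in all of them.

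Finer windows gave no call either. Reads in 173 windows of 1 Mb outside the TAD were sufficient for edgeR's test; 0 were called (0% of those tested), 6 had an unadjusted p under 0.05, and DESeq2 called 0. The biological coefficient of variation was 2.15, so that libraries within limb or within liver typically differed severalfold in a window. Forelimb and hindlimb were 1 group in this fit, so any difference between them is part of that value. Windows away from chromosome 5 shared by all 9 libraries included those at 110 Mb on chromosome 2 (*Ccdc34*, *Bbox1*, *Ano3*), 91 Mb on chromosome 6 (*Fbln2*, *Wnt7a*, a dorsal limb signal), 18 Mb on chromosome 14 (*Nr1d2*, *Ube2e2*) and 34 Mb on chromosome 4 (*Orc3*, *Akirin2*). Without the fragments that match the primer these 4 had reads in 5, 3, 3 and 3 libraries.

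Fragments with reads on other chromosomes were slightly more often in gene-rich windows than an even spread would give. Windows of 1 Mb with more than the median of 5 protein-coding 5′ ends held 49.1% of all fragments and 52.4, 54.5, 54.5, 57.9, 56.7 and 54.6% of the fragments with reads in limb and 57.05, 55.2 and 55.4% in liver. The value was above 49.1% in 9 of 9 libraries. Means were 55.1% ± 1.94 (SD, n = 6) and 55.9% ± 1.01 (SD, n = 3), a difference that did not pass the exact permutation test (p = 0.524, adjusted p = 0.536).

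Around genes of limb cartilage and genes of liver and red blood cells, few libraries had reads. Within 250 kb of the 5′ end of the 40 limb and cartilage genes, a mean of 1.02 of 6 limb libraries and 0.82 of 3 liver libraries had a fragment with reads. For the 40 liver and erythroid genes these were 0.75 and 0.57, and for all 21728 protein-coding genes 0.73 and 0.66. Medians were 1 limb and 1 liver library for the limb and cartilage list, 1 and 0 for the liver and erythroid list, and 0 and 1 over all genes. The higher mean of the first list in liver, 0.87 fragments a gene and library against 0.49 over all genes, was 1.60 in liver replicate 3 and 0.50 in the other 2 liver libraries. In liver replicate 3 the largest values of the list were at chromosome 5 genes, with 14 fragments at *Msx1* and 10 each at *Evc* and *Evc2*, whose surroundings overlap. The mean over all genes was not matched for chromosome. *Evc* and *Evc2*, which start next to each other 3.83 Mb from N1 on chromosome 5, had reads nearby in 5 of 6 limb libraries, with 2, 2, 0, 2, 2 and 1 fragments, and in liver replicate 3 alone of the liver libraries, with 10. *Msx1*, on the same chromosome, had 1 and 3 fragments in 2 forelimb libraries and 2, 1 and 14 in liver. *Pitx1*, the hindlimb identity factor, on chromosome 13, had reads in 5 libraries, of which 1 was hindlimb. Of the liver genes, *Apob*, the apolipoprotein of lipid export, *Foxa1*, a pioneer factor of liver, and *F2*, prothrombin, had reads nearby in 3 libraries each.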

How the data were processed

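4C-seq templates of 5 to 6 pooled embryos were cut with BglII and amplified by the authors with a pool of 6 viewpoint primers. Single-end reads of 150 bases were processed with, per the labels' processing notes, cutadapt 1.10, BWA 0.7.10-r789 and GATK 3.4-0 on GRCm38 (mm10). The deposited files give whole-number counts of reads per BglII fragment, per the study's methods from alignments outside blacklisted regions with a mapping quality of at least 30, and a signal column, the count per kb, deposited by the authors and not used here. Duplicate PCR copies were not removed by any step named in the sources used here. All 947632 BglII sites of the 21 assembled chromosomes of GRCm38.p6 coincided with fragment starts.

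Fragments within 20 kb of the midpoint of the nested primer (41165743) were left out. Shares were compared by exact permutation (84 arrangements, two-sided, Benjamini-Hochberg over 5), counts by edgeR 4.0.16 (R 4.3.3, TMM, filterByExpr, quasi-likelihood) and DESeq2 1.42.0, after a test on simulated data. The threshold was an adjusted p of 0.05. Wilson and exact intervals at 95% and the limit of 3 counts for a 0 came from scipy 1.17.1. Depth was 2984 to 20134 reads, so 3 reads are 0.0159 to 0.101% of a library. Genes are GENCODE vM21 protein-coding genes (vM21 coordinates, GRCm38). Groups and replicate numbers came from the titles where other labels conflicted (hindlimb replicate 3, N3 liver). The methods describe a replicate as a pool of embryos; if hindlimb replicates 1 and 3 shared a pool, p-values would partly measure technical spread. No pairing of libraries by replicate number was seen, but the libraries are too sparse for that check to decide. Named chromosomes are 5, X, Y and the 3 of smallest p; named windows are those with reads in the most libraries (10 on chromosome 5, 5 elsewhere); named list genes are the 4 with reads in the most libraries; some items that these rules select are not reported here. Members and lists were chosen with earlier results of these data known. Alternatives were exclusions of 50 and 100 kb, runs of equal counts taken once, single reads left out, capped counts, thinning, other windows, other scalings, each library left out and, chosen after the data were seen, fragments with a primer match or with reads in all 9 libraries left out.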

Additional observations from a re-analysis of the deposited data

Results flagged for a closer look

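Among 33 values tested in the 6 limb libraries, 5 had a library whose gap to its nearest neighbour took up most of the range (Dixon's test, which flags about 1 in 20 groups by chance), and in each that library was hindlimb replicate 2, the shallowest, with 2984 reads. It held 2.21% of its reads outside the TAD at 0.5 to 2 Mb, where the next limb library held 0.98%, and 10.8% over 40 Mb, where the next held 5.27%. Without the fragments that match the primer and their neighbours, it held 3.48 and 5.14% in these bands. Of its total reads, the recurrent fragment on chromosome 14 took 6.37% (next 2.55%), the second of the pair on chromosome 2 took 2.61% (next 0.84%) and that at 123.3 Mb on chromosome 5 took 2.55% (next 0.64%). The fragment at 123.3 Mb also lies in the band over 40 Mb, so the flagged values are not all separate. In this library 53.1% of the fragments outside the TAD had a single read. The part of its depth in these values was not tested.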

How the results depend on the processing

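In 213 recalculations of 11 results under other settings, 203 kept direction and side of the threshold, 10 moved and none passed it among the shares. The permutation tests had 84 arrangements or fewer. After adjustment over 5, a share or band alone could not pass 0.05 in any of them. For shares and bands, keeping the side of the threshold was thus largely fixed by the design. Leaving out 1 library in turn gave limb minus liver differences of -7.54 to 2.52 percentage points for the chromosome 5 share of reads and -7.15 to 1.99 for fragments, and outside the TAD -7.89 to 0.87 for reads and -7.92 to 0.94 for fragments, in each case with the highest value without liver replicate 3. The log2 ratio of N1 to N3 ranged from -0.59 to 0.0551 (highest without liver replicate 3) and that of N1 to N2 from -0.0652 (without hindlimb replicate 2) to 0.44. With hindlimb alone, the chromosome 5 share of reads differed by 0.29 and the gene-rich share by 0.51 percentage points, and with 5-Mb windows the gene-rich share by 0.58, against negative main values, none past the threshold (an exact permutation test of 3 against 3 libraries cannot go below p = 0.1). Without a filter on low counts 1 window of 2191 was called, at 42 Mb on chromosome 3, lower in limb (edgeR adjusted p = 0.0418; it was chosen after its value was seen). Fragments with reads per 1-Mb window could not be fitted, since no window passed the filter.

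Same-numbered libraries of different tissues did not deviate together (correlations over 1-Mb windows -0.07 to 0.02, and -0.04 to 0.06 for other pairs). Of the 11343 fragments with reads outside the TAD, 9927 had them in 1 library, so this check cannot decide whether the numbers pair libraries. With the replicate block (27 arrangements, smallest p 0.037) the chromosome 5 differences, -3.53 for reads and -4.46 for reads outside the TAD, are the same by construction. Their exact permutation p was 0.593 and 0.333, and 0 bands were called, though with 27 arrangements a band alone could not have been. By edgeR, 0 chromosomes and 0 windows were called. Hindlimb replicate 2, with 3 reads being 0.101% of its total, limits what small shares can show.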
